A study of Mus musculus with 16 samples.

Results

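Collagen chain genes encode the polypeptides that assemble in threes into the collagen trimers of the extracellular matrix. They were taken as every row of the deposited table whose Ensembl identifier maps to a mouse symbol made of Col, a type number, a and a chain number. This gave 44 genes of 54331 listed, of which 35 had a mean of at least 10 normalized counts over the libraries, among 15527 genes that did. The 35 comprised 10 of 11 fibrillar chains, 6 of 6 basement membrane chains, 3 of 3 network-forming chains and 6 of 9 FACIT chains. There were also 4 of 6 beaded-filament chains, the anchoring-fibril chain, both multiplexins, 2 of 4 transmembrane chains and Col28a1. The other 9 were Col26a1, Col22a1, Col2a1, Col6a4, Col6a5, Col13a1, Col9a2, Col25a1 and Col9a1, and their levels are not described further.

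RNA sequencing covered primary lung fibroblasts of C57BL/6 mice, 72 h after infection with an adenovirus (AdV). ST2 KO cells lack ST2, the receptor of the cytokine IL-33 that Il1rl1 encodes, per their label. They gave 1 library with AdV-FLIL33 (KO FL), 1 with AdV-MIL33 (KO M) and 2 with the non-coding AdV-NULL (KO NULL). Wild-type (WT) cells gave the same set: WT FL, WT M and 2 WT NULL libraries. Every group was infected, so no uninfected cells were compared. FL and M are read here as full-length and mature IL-33. The labels name no animal or culture of origin for either NULL pair, so every p-value here is set against the spread among these libraries, which may be technical. A second deposited table, labelled for unseparated lung cells, holds the same values, so the name fibroblast is taken from the titles in the header, and unseparated cells were not analysed here.

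Normalized totals were 2.391e+07 to 2.917e+07 per library, lowest in WT M. The targeted gene did not separate the genotypes. Il1rl1 had 79.2, 85.2, 73.1 and 69.2 normalized counts in KO FL, KO M and the KO NULL pair, against 33.9, 70.7, 18.3 and 106 in WT FL, WT M and the WT NULL pair. A total per gene does not show a missing exon, and the genotype is the label's. The Il33 transcript was 1080220 in KO FL, 81110 in KO M, 593840 in WT FL and 248956 in WT M, against 214 and 216 in KO NULL and 193 and 201 in WT NULL, so the dose of IL-33 was not matched between genotypes. Fibroblast markers were present in all 8 libraries, with a summed level of 239351 in WT M and 299771 to 520461 in the other 7.

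Fibrillar collagens (types I, II, III, V, XI, XXIV and XXVII) form the ropes that give lung tissue its tensile strength, and fibroblasts are their main source. Type IV collagen forms the sheet-like network of basement membranes. FACIT collagens decorate fibril surfaces, and type VI collagen forms beaded microfilaments at the cell surface. Fibrillar procollagen is hydroxylated and folded in the endoplasmic reticulum, trimmed outside the cell and cross-linked by lysyl oxidases.

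The promoter windows of 4 chains are shown because their RNA levels moved in different ways: Col11a1 was lower in KO, Col3a1 was higher in WT FL, Col8a1 was lower in WT M and Col15a1 was higher with both inserts in WT. Each is the 250 bases before the RefSeq start, on the gene's strand, from RefSeq on GRCm38.p6. Col11a1 lies at chr3:114030290-114030539 (plus strand), Col3a1 at chr1:45311288-45311537 (plus), Col8a1 at chr16:57754738-57754987 (minus) and Col15a1 at chr4:47207762-47208011 (plus). None of these windows overlaps an exon of the GENCODE annotation. Capitals mark the CCAAT box, the GC box core GGGCGG and the TATA box letters TATAAA, each on either strand.
Col11a1: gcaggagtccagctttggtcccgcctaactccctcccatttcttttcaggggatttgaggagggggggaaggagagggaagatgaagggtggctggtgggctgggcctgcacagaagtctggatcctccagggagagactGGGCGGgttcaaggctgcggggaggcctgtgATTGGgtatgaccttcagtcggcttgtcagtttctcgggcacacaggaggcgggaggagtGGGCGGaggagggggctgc
Col3a1: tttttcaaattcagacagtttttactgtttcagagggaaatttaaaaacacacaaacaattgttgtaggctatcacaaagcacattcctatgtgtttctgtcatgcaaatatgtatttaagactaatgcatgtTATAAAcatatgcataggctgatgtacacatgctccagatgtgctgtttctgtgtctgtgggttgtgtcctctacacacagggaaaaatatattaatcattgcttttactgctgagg
Col8a1: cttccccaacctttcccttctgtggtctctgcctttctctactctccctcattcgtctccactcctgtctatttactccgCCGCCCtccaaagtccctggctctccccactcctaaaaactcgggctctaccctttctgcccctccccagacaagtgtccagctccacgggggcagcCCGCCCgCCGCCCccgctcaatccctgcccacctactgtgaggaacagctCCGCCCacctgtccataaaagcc
Col15a1: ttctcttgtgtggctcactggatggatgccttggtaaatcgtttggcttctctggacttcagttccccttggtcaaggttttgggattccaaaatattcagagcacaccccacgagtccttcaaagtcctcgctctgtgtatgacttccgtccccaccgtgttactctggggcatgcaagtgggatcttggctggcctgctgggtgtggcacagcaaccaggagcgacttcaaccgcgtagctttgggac
Col11a1 held 1 CCAAT and 2 GGGCGG matches, Col3a1 held 1 TATAAA, Col8a1 held 4 GGGCGG and Col15a1 held none of these letters.

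Windows of the same length were available for 35 of the 44 chain genes (38 windows) and were compared with all 32851 windows. GGGCGG, on either strand, was in 57.9% of collagen windows and 32.7% of all windows. CCAAT was in 34.2% and 33.8%, TATAAA in 13.2% and 12.4%, and the AP-1 letters TGANTCA in 2.63% and 6.75%. In the windows shown no match overlaps another, and a match describes the letters only. Type IV collagen genes lie in head-to-head pairs. Col4a1 (minus strand) and Col4a2 (plus strand) start 21 bases apart on chromosome 8 and share 22 bases, shown because both chains read from them. In this stretch, at chr8:11312805-11312826 on the plus strand, capitals mark GGGCGG.
Col4a1 and Col4a2 overlap: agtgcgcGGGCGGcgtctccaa
Col4a3 and Col4a4 start 72 bases apart on chromosome 1, and Col4a5 and Col4a6 start 1309 bases apart on chromosome X. The authors' counting is not stated to use strand, so a read lying wholly within the 22 bases shared by Col4a1 and Col4a2 could not be assigned. A read that runs past them lies in only 1 of these genes.

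The 44 chains together took 3.74% of all normalized counts in KO FL, 4.03% in KO M and 4.19% in each KO NULL library. In WT they took 5.20% in FL, 3.36% in M, and 4.73% and 4.67% in the NULL pair. These totals include the Il33 transcript. Without it the shares were 3.88% in KO FL, 4.04% in KO M, 5.32% in WT FL and 3.40% in WT M, with the NULL shares unchanged at this precision. On either total the WT FL library had the highest share and WT M the lowest, and all 4 KO libraries lay between them. With totals rescaled by trimmed-mean factors, which are not given here for the other libraries, the WT M share was 2.94%. Fibrillar chains made up most of it, at 2.93% in KO FL, 3.16% in KO M and 3.29% and 3.30% in KO NULL, against 4.10% in WT FL, 2.48% in WT M and 3.44% and 3.39% in WT NULL. FACIT chains took 0.156% in KO FL, 0.160% in KO M and 0.173% and 0.168% in KO NULL, against 0.277% in WT FL, 0.0853% in WT M and 0.334% and 0.342% in WT NULL. The FACIT share was thus the most spread of these among the WT libraries and near level among the KO libraries. Basement membrane chains stayed between 0.502% and 0.560% in KO, below the 0.673% to 0.750% of WT.

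Levels between genes are compared per kilobase (kb) of transcript, as a mean over the 8 libraries. Both type I chains led, Col1a1 at 51601 and Col1a2 at 44571 normalized counts per kb. Col5a2, a chain of the type V collagen that sets fibril diameter, had 27970 per kb, and Col3a1, the chain of the type III collagen of extensible tissue, had 22531. The basement membrane chains Col4a1 and Col4a2 followed at 14766 and 10499, then Col5a1 at 5878, Col8a1 at 5719, Col12a1 at 3658, Col14a1 at 2158, Col4a5 at 1532 and Col11a1 at 1009. The ranges over libraries overlapped for every pair of neighbours in this order but Col4a2 (8996 to 13226 per kb) and Col5a1 (2797 to 7012 per kb). Within a library Col1a1 was above Col1a2 and Col4a1 above Col4a2 in all 8. The lowest of the 35 were Col9a3 at 8.09, Col19a1, Col4a3, Col4a6, Col6a6, Col23a1, Col24a1 and, at 1.80, Col17a1.

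**Figure D1:**
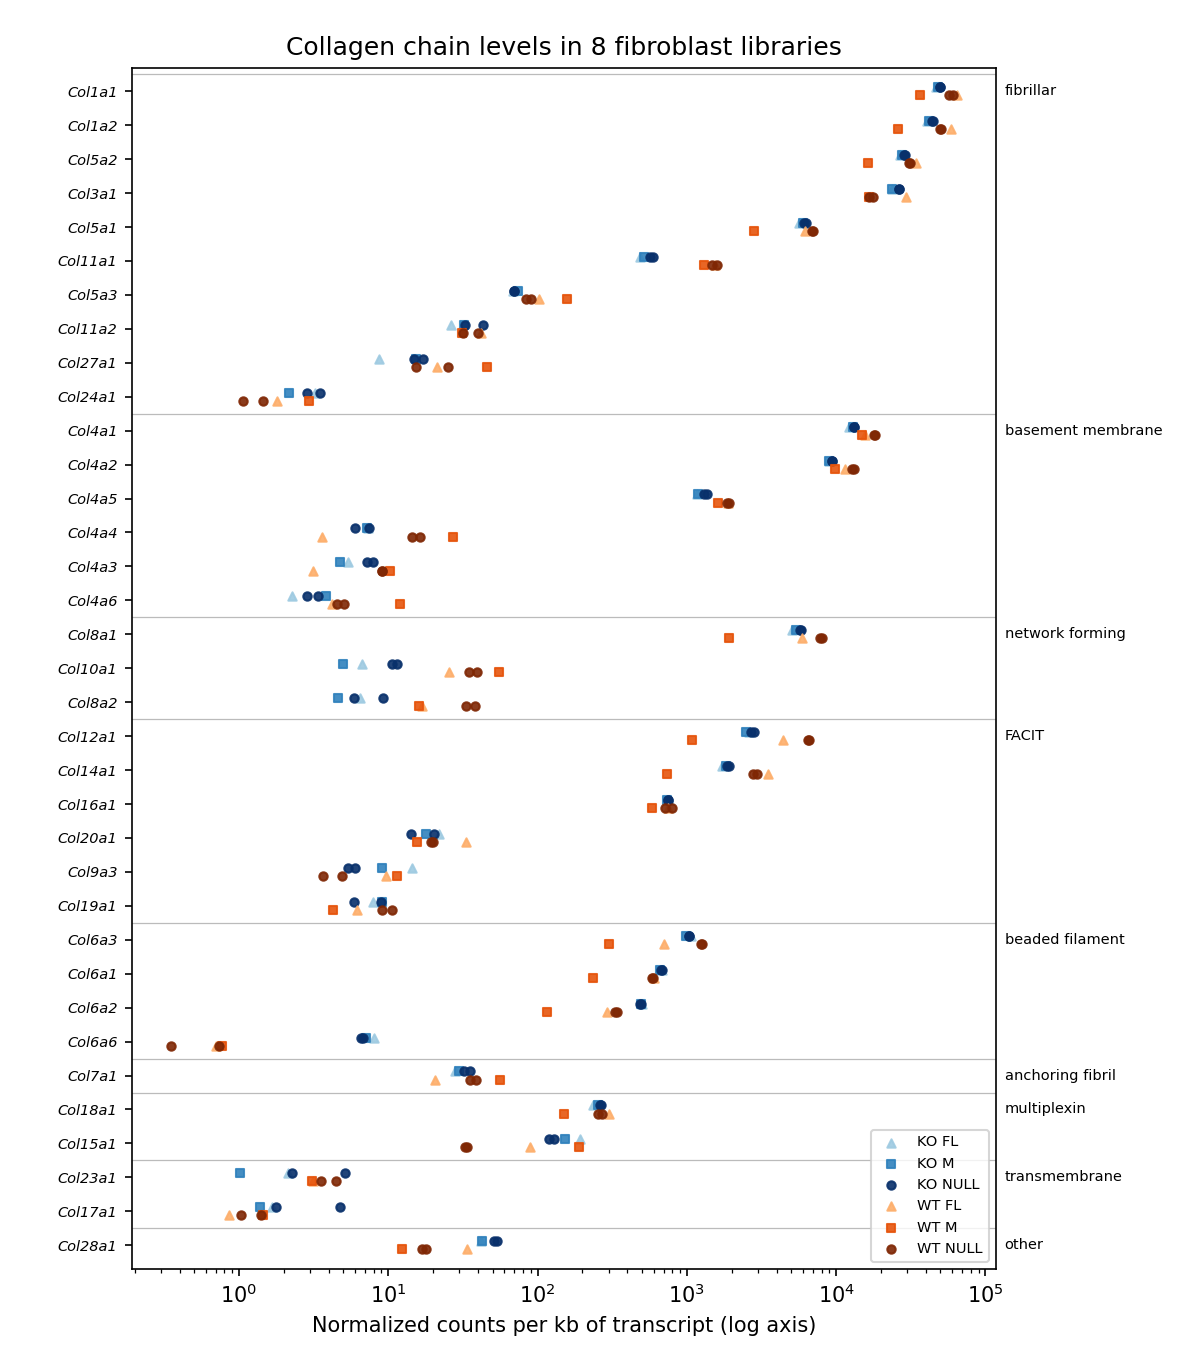
Normalized counts per kb of transcript (log axis) for the 35 collagen chains with a mean of at least 10, grouped by class. Blue points are KO libraries and orange to brown points WT libraries; triangles are FL, squares M and circles NULL. For most chains the KO points sit close together, while the WT M square stands to the left of the other WT points for chains such as Col12a1, Col8a1 and Col6a3 and to the right for Col15a1.

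Among the fibrillar chains, Col1a1 (chr11:94936224-94953042) had 278106, 283912, 294453 and 293384 normalized counts in KO FL, KO M and the KO NULL pair, against 381061, 217130, 360026 and 339869 in WT FL, WT M and the WT NULL pair. The WT libraries spanned the KO range on both sides. Col1a2 had 216114, 225262, 236117 and 237706 in the KO libraries in that order, against 314078, 139451, 271352 and 266825 in the WT libraries. Col3a1 (chr1:45311538-45349706) had 130991, 132397, 146481 and 145945 in KO, against 163501, 92951, 92981 and 97641 in WT. Here WT FL stood above every other library and WT M lay beside the WT NULL pair. Col5a1 ranged from 47769 to 52586 in KO and from 23511 to 58942 in WT. Col27a1 (66.3 to 129 in KO, 116 to 348 in WT) and Col24a1 (15.5 to 24.8 in KO, 7.55 to 21.1 in WT), both of them distant members of the fibrillar group, were at the bottom of the class.

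The spread differed between the genotypes. Over the 24 chains with a mean of at least 100, the median ratio of the highest to the lowest library was 1.11 among the 4 KO libraries and 2.38 among the 4 WT libraries. Between the libraries of a NULL pair, the 35 chains differed by a median of 0.07 log2 units in KO and 0.09 in WT, against 0.09 and 0.11 over all genes tested. Only 2 chains differed over 2-fold within the KO NULL pair, with Col17a1, an epithelial transmembrane collagen of about 10 counts, the farthest at 1.34 log2 units; none did in the WT NULL pair, where Col6a6 was farthest at 0.87.

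Of the 35 chains, 10 differed between KO and WT averaged over inserts, 3 of them higher and 7 lower in KO, by a fit of limma to log2(normalized counts + 1) over all 15527 genes with a Benjamini-Hochberg adjusted p below 0.05. That is 28.6% of the chains, beside 11.9% of all genes tested, 6.86% of which were called higher and 5.08% lower. The median log2 change was -0.12 over the chains and 0.00 over all genes, but over the chains it was 0.17 without WT FL, -0.22 without WT M, -0.06 with quantile normalization and -0.05 without KO FL, without the first KO NULL or without the first WT NULL library, so its direction rested on WT FL. Without the second KO NULL library it was -0.07. The 3 chains called higher in KO lay outside the fibrillar, basement membrane, network and FACIT classes, and both type I chains stayed within the spread (Col1a1 log2 change -0.14, adjusted p = 0.6695; Col1a2 -0.05, adjusted p = 0.9138). By class, 3 of 6 basement membrane, 2 of 3 network-forming and 2 of 10 fibrillar chains were called lower, and 0 of 6 FACIT chains were called.

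The lower chains included Col11a1 (chr3:114030540-114220718), a fibrillar chain of type XI collagen that nucleates thin fibrils in cartilage. It had 3727, 3935, 4577 and 4348 normalized counts in KO FL, KO M and the KO NULL pair, against 11850, 9998, 11278 and 12179 in WT FL, WT M and the WT NULL pair. The genotypes did not overlap. Changes with insert were smaller: the log2 change against WT NULL was -0.23 in WT M, which was called, and 0.02 in WT FL. KO FL and KO M both lay below the KO NULL pair (log2 change -0.22 with the inserts pooled, not called). The log2 change was -1.45 (SE 0.07, adjusted p = 2.20e-04), and within NULL alone it was -1.39 (SE 0.10, adjusted p = 0.0013). The mean of the NULL pairs was 4462 ± 161 in KO and 11728 ± 636 in WT (SD, n = 2 each).

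Network-forming Col10a1, the hypertrophic cartilage chain, had 20.9, 15.5, 33.1 and 36.0 normalized counts in KO FL, KO M and the KO NULL pair, against 80.3, 173, 109 and 124 in WT FL, WT M and the WT NULL pair. Every KO library lay below every WT library, with a log2 change of -2.18 (SE 0.27, adjusted p = 0.0045). Col8a2, the partner of Col8a1 in the hexagonal type VIII lattice, had 27.9, 19.9, 40.2 and 25.4 in KO, against 72.8, 69.5, 165 and 143 in WT. The groups did not overlap (log2 change -1.89, SE 0.21, adjusted p = 0.0032). Col8a1 itself, at a mean of 5719 per kb against 16.3 for Col8a2, was not called (log2 change 0.10, adjusted p = 0.8765).

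The common basement membrane chains Col4a1 and Col4a2 and the less abundant Col4a5 (chrX:141475385-141689234), a chain mutated in Alport syndrome, were lower in KO. Col4a5 had 7609, 7755, 8502 and 8903 in KO FL, KO M and the KO NULL pair, against 12249, 10504, 12131 and 12473 in WT FL, WT M and the WT NULL pair. No KO value reached the lowest WT value, and the log2 change was -0.53 (SE 0.07, adjusted p = 0.0045). Col4a1 had 80773 to 87833 in KO, against 98447 to 119883 in WT (log2 change -0.36, adjusted p = 0.0311), and Col4a2 had 58021 to 60467, against 63798 to 85307 (log2 change -0.35, adjusted p = 0.0339); neither was called without any one of the KO or WT NULL libraries. The fibrillar chain Col5a3 had 416 to 453 in KO, against 510 to 969 in WT, with a log2 change of -0.58 (SE 0.14, adjusted p = 0.0416).

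Col6a6, a minor type VI chain, had 70.6, 62.8, 59.3 and 57.9 normalized counts in KO FL, KO M and the KO NULL pair, against 6.20, 6.80, 3.09 and 6.47 in WT FL, WT M and the WT NULL pair. The WT values were near the low end of the table, and the groups stood far apart (log2 change 3.30, SE 0.27, adjusted p = 0.0010). Every WT value lay below the mean required for testing, so Col6a6 passed that filter through its KO libraries alone. The size of its change depended on the value added before the logarithm. With 8 added the log2 change was 2.38. Of the classical type VI chains, none was called. Col6a1 and Col6a2 did not overlap between the genotypes: Col6a1 had 2718 to 2808 in KO and 964 to 2488 in WT (adjusted p = 0.2576), and Col6a2 had 1909 to 1966 in KO and 456 to 1336 in WT (adjusted p = 0.0538). Col6a3 overlapped, at 9916 to 10787 in KO and 3046 to 12839 in WT, with a log2 change of 0.44 averaged over inserts and -0.28 in NULL alone. Col28a1, a collagen of peripheral nerve, had 177, 180, 216 and 225 in KO, against 142, 52.4, 76.2 and 71.2 in WT. Its groups did not overlap (log2 change 1.30, SE 0.29, adjusted p = 0.0344).

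Col15a1 (chr4:47208161-47313167), a multiplexin of the basement membrane zone, had 998, 787, 622 and 670 normalized counts in KO FL, KO M and the KO NULL pair, against 457, 974, 169 and 173 in WT FL, WT M and the WT NULL pair. The NULL pairs were far apart, but WT M reached the KO range. Averaged over inserts the log2 change was 1.16 (SE 0.23, adjusted p = 0.0226) and in NULL alone 1.91 (SE 0.32, adjusted p = 0.0260). In NULL alone 5 of 35 chains were called (14.3%, beside 4.28% of all genes, 2.58% called higher and 1.7% lower), namely Col6a6 (log2 change 3.43, adjusted p = 0.0065) and Col15a1 higher, and Col8a2 (-2.23, adjusted p = 0.0115), Col11a1 and Col4a5 (-0.50, adjusted p = 0.0359) lower in KO.

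Counted without a model, 8 chains had all 4 KO libraries below all 4 WT libraries and 4 had them above, while 23 overlapped; over all genes tested the shares were 9% and 11.5%. The 8 of 35 were therefore more than the share over all genes and the 4 of 35 close to it. The number of called chains depended on how the spread was estimated. The averaged count was 23 in a fit of 6 groups, which keeps FL and M apart, 26 without WT FL, 21 without WT M and 5 without any one of the other 6 libraries; Col15a1, Col28a1, Col5a3, Col4a1 and Col4a2 were not called in those last 6, while Col6a6, Col10a1, Col8a2, Col11a1 and Col4a5 were called in every alternative run that kept them. The NULL count was 23 in a fit of 6 groups and without WT FL or WT M, 3 without KO FL or KO M, 2 without either WT NULL and 1 without either KO NULL library, and only Col11a1 kept its call in all of these.

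**Figure D2:**
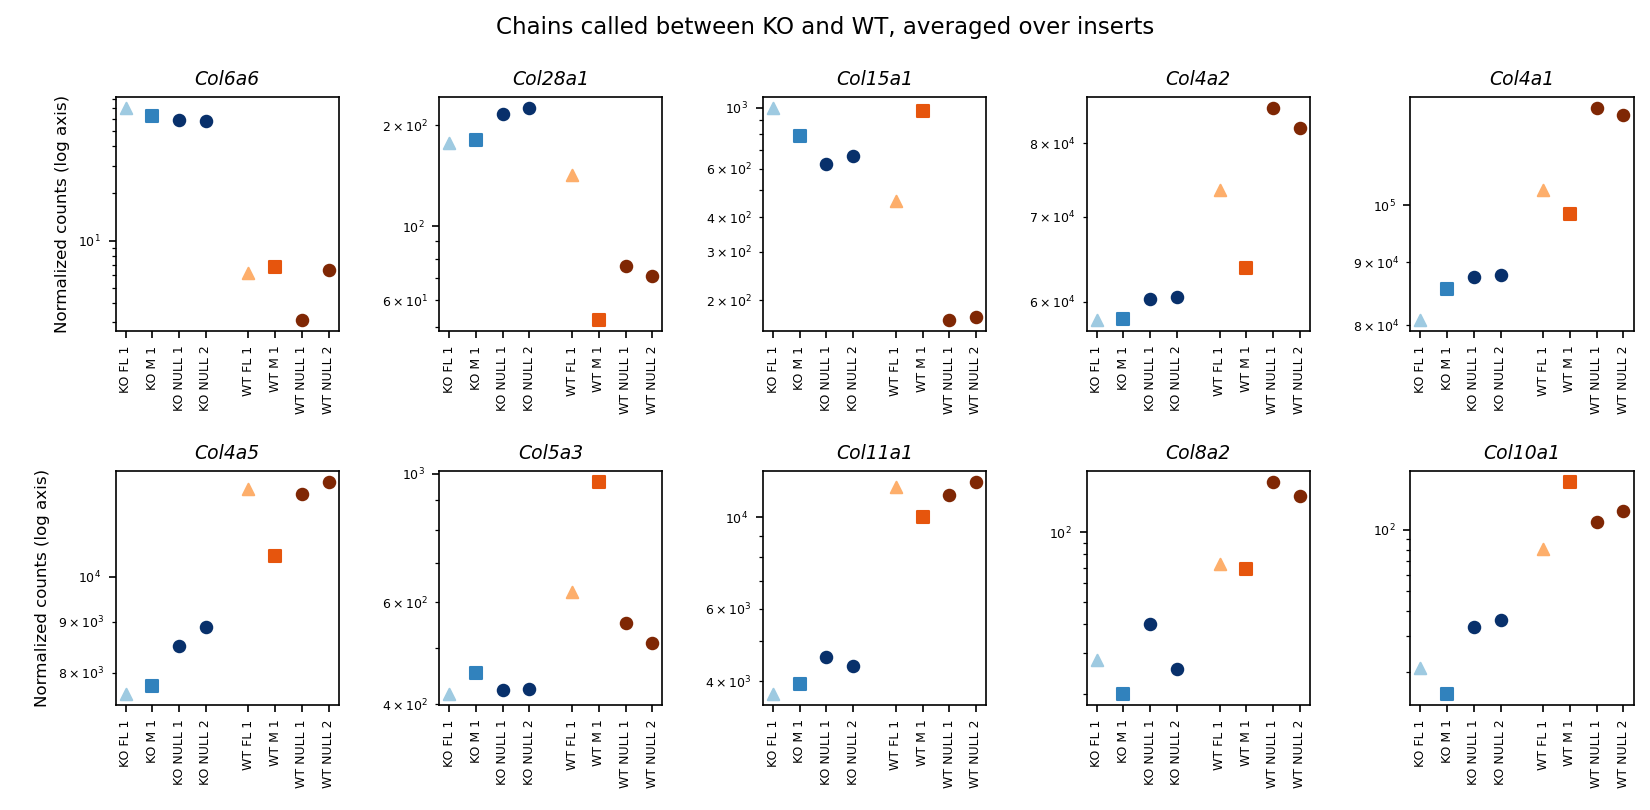
Normalized counts (log axis, each panel with its own range) in the 8 libraries for the 10 chains called between KO and WT averaged over inserts. The 4 KO libraries are on the left of each panel and the 4 WT libraries on the right; Col15a1 is the panel in which the WT M library lies among the KO libraries.

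Markers of other cell types moved with genotype as well. Mesothelial markers summed to 438 to 648 in KO, against 1213 to 5036 in WT, with 5 of 8 called lower; endothelial markers summed to 221 to 249 in KO, against 413 to 574 in WT, with 3 of 7 called lower; and Schwann cell markers summed to 90.6 to 108 in KO, against 23.5 to 86.8 in WT, with 2 of 3 called higher. Epithelial markers summed to 275 in KO FL, 270 in KO M and 17.8 and 15.9 in KO NULL. In WT they summed to 316 in FL, 289 in M and 1274 and 1058 in NULL. Of 4 tested, 3 were called lower in KO, with most of the gap between the NULL pairs. Pericyte and smooth muscle markers summed to 545542 to 556360 in KO, against 263816 to 465608 in WT, with 4 of 9 called higher and 2 lower. Most of that sum was Acta2 (329631 to 333169 in KO, 137159 to 253622 in WT), so it does not speak for the other markers. Cspg4 was also higher in KO (1733 to 2041, against 422 to 960). Rgs5 was lower in KO (78.5 to 129, against 147 to 3820), as was Des (2906 to 3446, against 6661 to 21916). Pdgfrb and Notch3 overlapped, with every KO library below the WT NULL pair. Chondrocyte markers summed to 299 to 331 in KO, against 144 to 265 in WT, most of it Sox9 (263 to 288 in KO, 128 to 216 in WT). Of 4 tested, 2 were called higher, and the median log2 change was 0.04. Matn3 had 5.65 to 11.8 in KO and 8.05 to 19.3 in WT, and Comp 3.41 to 8.88 and 6.47 to 26.5, neither of them called. The chondrocyte marker Cnmd was at 0 in all 8 libraries. The cartilage-type chains Col11a1 and Col10a1 were lower in KO. The part of all these markers in the collagen differences was not tested. Fewer cells of a type and less RNA per cell cannot be told apart in such bulk libraries. Il1rl1 lies on chromosome 1 at chr1:40429570-40465415, 4.85 Mb from Col3a1 and 4.91 Mb from Col5a2, and neither of these was called between the genotypes averaged over inserts. In NULL alone the limma fit of 4 groups gave log2 changes of 0.62 for Col3a1 (adjusted p = 0.2205) and -0.11 for Col5a2 (adjusted p = 0.8707). The Col3a1 libraries did not overlap there, at 146481 and 145945 in KO NULL, against 92981 and 97641 in WT NULL.

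With mature IL-33 in WT cells, 25 of 35 chains were called against WT NULL, 18 of them lower and 7 higher. The share was 71.4%, beside 49.3% of all genes tested; 26.8% of all genes were called lower and 22.5% higher. The median log2 change was -0.33 over the chains and -0.02 over all genes, and with quantile normalization -0.03 and -0.02, so the lower median of the chains was not seen under that scaling. These comparisons came from the fit of 6 groups, which takes the spread from the NULL pairs and assumes it for the lone M library. With quantile normalization 8 chains were called higher and 13 lower, in place of 7 and 18. With no filter on low levels 15 were called.

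The 18 lower chains comprised 5 fibrillar, 4 FACIT, 3 beaded-filament, 3 basement membrane and 2 network-forming chains and 1 multiplexin. Col12a1 (chr9:79598991-79718831), a FACIT chain of dense connective tissue, had 12446 normalized counts in WT M, against 74598 and 76274 in the WT NULL pair (log2 change -2.60, SE 0.04, adjusted p = 1.82e-07). The other FACIT chain of fibril surfaces at a high level, Col14a1, had 4764, against 18019 and 19012 (log2 change -1.96, SE 0.05, adjusted p = 6.50e-07). Both were far outside the difference within the NULL pair. Of the 6 FACIT chains 4 were lower, and Col9a3, a cartilage FACIT chain, was higher at 34.9, against 14.8 and 11.2 (log2 change 1.37, adjusted p = 0.0215). Col9a3 was not called without the second WT NULL library, with no filter on low levels or with quantile normalization.

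All 3 of the classical type VI chains were lower in WT M. Col6a3 had 3046, against 12839 and 12494 in WT NULL (log2 change -2.06, SE 0.04, adjusted p = 4.20e-07), and Col6a2 had 456, against 1336 and 1310 (log2 change -1.53, SE 0.07, adjusted p = 5.49e-06). Col6a1 fell by 1.32 on the log2 scale (adjusted p = 5.53e-06). Among network-forming chains, Col8a1 (chr16:57624258-57754737), a chain of the vessel wall and cornea, had 9787, against 39882 and 41068 (log2 change -2.05, SE 0.04, adjusted p = 2.86e-07).

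Among the fibrillar chains, 5 of 10 were lower in WT M and 2 higher. The type I chains fell by 0.69 (Col1a1, adjusted p = 2.02e-05) and 0.95 (Col1a2, adjusted p = 1.47e-06) on the log2 scale, and Col5a1 fell by 1.32 (adjusted p = 7.68e-07). Col3a1 was not called, at a log2 change of -0.04 (SE 0.04, adjusted p = 0.4670), so the major fibrillar chains did not move by the same amount. Col5a3 had 969, against 553 and 510 (log2 change 0.87, SE 0.10, adjusted p = 4.72e-04), and Col27a1 had 348, against 191 and 116 (log2 change 1.22, SE 0.29, adjusted p = 0.0128). Col27a1 was not called with no filter on low levels, and its log2 change ran from 0.86 to 1.575 over the alternatives.

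Col15a1 had the largest rise of the chains called in WT M, with 974 normalized counts, against 169 and 173 in WT NULL (log2 change 2.50, SE 0.10, adjusted p = 3.92e-06). The related multiplexin Col18a1, the source of endostatin, had 837, against 1509 and 1414, and fell by 0.80 on the log2 scale (adjusted p = 1.66e-04). Basement membrane chains split as well. Col4a5, Col4a1 and Col4a2 fell by 0.23, 0.28 and 0.39 on the log2 scale, while Col4a4 rose (log2 change 0.83, adjusted p = 0.0188). Col4a6 had 79.6, against 33.7 and 30.2 (log2 change 1.29, adjusted p = 0.0168). It was not called without the second WT NULL library, with no filter on low levels or with quantile normalization.

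The WT M library stood apart from the other 7 in its cell type markers. Macrophage and monocyte markers summed to 45964 there and to 19536 to 23040 elsewhere, with 9 of 9 tested called higher against WT NULL, though Adgre1 and Ptprc had 483 and 405 in WT M and reached 486 and 401 in KO NULL. Mesothelial markers summed to 5036 there and to 438 to 1442 elsewhere, with 8 of 8 called higher. Of the fibroblast markers 8 of 10 were called lower, and of the pericyte and smooth muscle markers 8 of 9 were called lower. The other of these 9, Des, was called higher, at 21916 in WT M, against 7007 and 6661 in WT NULL. Marco was at 0 in 5 of the 8 libraries. The part of these in the collagen values was not tested.

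With full-length IL-33 in WT cells, 15 of 35 chains were called against WT NULL, 6 higher and 9 lower. That is 42.9% of the chains, beside 7.39% of all genes tested, 3.5% called higher and 3.9% lower. The median log2 change was -0.01 over the chains and -0.02 over all genes, and 0.06 over the chains with quantile normalization. Without either KO NULL library 8 were called, and with no filter on low levels 7.

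Of the 10 fibrillar chains, 3 were called higher and 1 lower in WT FL. Col3a1 had 163501, against 92981 and 97641 in WT NULL (log2 change 0.78, SE 0.04, adjusted p = 3.41e-04), Col1a2 had 314078, against 271352 and 266825 (log2 change 0.22, SE 0.03, adjusted p = 0.0078), and Col5a2 rose slightly (log2 change 0.14, adjusted p = 0.0441). Col5a1 was lower, at 52392, against 58942 and 58344 (log2 change -0.16, adjusted p = 0.0394). Col1a2 was not called without either KO NULL library, with no filter or with the NULL number as a block, and with quantile normalization its log2 change was 0.06 (adjusted p = 0.5002). Col15a1 had 457, against 169 and 173 (log2 change 1.41, SE 0.10, adjusted p = 8.65e-04). Col28a1 had 142, against 76.2 and 71.2 (log2 change 0.94, SE 0.17, adjusted p = 0.0223), and Col14a1 had 22600, against 18019 and 19012 (log2 change 0.29, SE 0.05, adjusted p = 0.0178). Neither was called without either KO NULL library. Col28a1 was also not called without either WT NULL library or with the NULL number as a block, and Col14a1 was not called with no filter.

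The falls in WT FL were led by the pair of type IV chains of the kidney and lung basement membrane, Col4a4 and Col4a3. Col4a4 had 36.5, against 145 and 164 in WT NULL (log2 change -2.05, SE 0.22, adjusted p = 0.0033), and Col4a3 had 26.8, against 77.1 and 78.0 (log2 change -1.50, SE 0.24, adjusted p = 0.0149). Col4a3 was not called without the second WT NULL library or with the NULL number as a block, and Col4a4 was not called with no filter. These neighbours on chromosome 1 were both far below the NULL pair. Col6a3 had 7059, against 12839 and 12494 (log2 change -0.84, SE 0.04, adjusted p = 3.71e-04), with Col6a1 and Col6a2 not called. Col7a1, the anchoring-fibril chain, had 190, against 357 and 326 (log2 change -0.84, SE 0.13, adjusted p = 0.0127), and Col12a1 had 51116, against 74598 and 76274 (log2 change -0.56, SE 0.04, adjusted p = 9.96e-04). Pericyte and smooth muscle markers summed to 345675 in WT FL, against 465608 and 462032 in WT NULL, with 6 of 9 called lower, and fibroblast markers to 484540, against 520461 and 514527, with 3 of 10 higher and 2 lower; their part was not tested.

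Both inserts were compared with the same WT NULL pair, so their calls are not independent. Of the 35 chains, 6 were lower with both, 1 (Col15a1) was higher with both, 3 were higher with FL and lower with M (Col1a2, Col5a2 and Col14a1) and 2 were lower with FL and higher with M (Col4a4 and Col7a1). WT M and WT FL are 1 library each, so setting them against each other compares those libraries, with a spread borrowed from the NULL pairs, and not the inserts. On that assumption 26 of 35 chains were called in the WT M against the WT FL library (74.3%, beside 36% of all genes tested, 15.9% called higher and 20.1% lower), 8 higher and 18 lower. Higher in WT M were Col4a4 (275 in WT M, 36.5 in WT FL; log2 change 2.88, adjusted p = 2.66e-04), Col4a3 (1.66, adjusted p = 0.0041), Col4a6 (1.48, adjusted p = 0.0241), Col7a1 (1.45, adjusted p = 5.04e-04) and Col10a1 (1.10, adjusted p = 0.0247). Lower in WT M were Col14a1 (-2.25, adjusted p = 2.06e-06), Col12a1 (-2.04, adjusted p = 2.06e-06), Col8a1 (-1.62, adjusted p = 2.79e-06), Col28a1 (-1.43, adjusted p = 0.0019) and Col6a1 (-1.37, adjusted p = 1.95e-05). Col3a1, called against NULL only in FL, had 92951 in WT M and 163501 in WT FL.

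In KO cells no chain was called with either insert. The count was 0 of 35 in KO M and 0 of 35 in KO FL, beside 0.0322% and 0.238% of all genes tested that were called by limma. At an unadjusted p below 0.05 there were 10 chains in KO M, 9 of them lower, beside 8.17% of all genes, and 14 in KO FL, 12 of them lower, beside 13.4% of all genes. The median absolute log2 change over the chains was 0.12 in KO M and 0.18 in KO FL, and 0.83 in WT M and 0.34 in WT FL. Changes over 2-fold in size occurred for 2 chains in KO M, 1 in KO FL, 14 in WT M and 5 in WT FL. The smallest unadjusted p in KO M was that of Col10a1, at 15.5, against 33.1 and 36.0 in KO NULL (log2 change -1.11, limma adjusted p = 0.4227). In KO FL it was that of Col15a1, at 998, against 622 and 670 (log2 change 0.63, limma adjusted p = 0.1039), the chain that also rose with both inserts in WT. Epithelial markers summed to 275 in KO FL and 270 in KO M, against 17.8 and 15.9 in KO NULL, with 3 of 4 called higher with each insert, and no other marker list had more than 1 called member in KO.

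**Figure D3:**
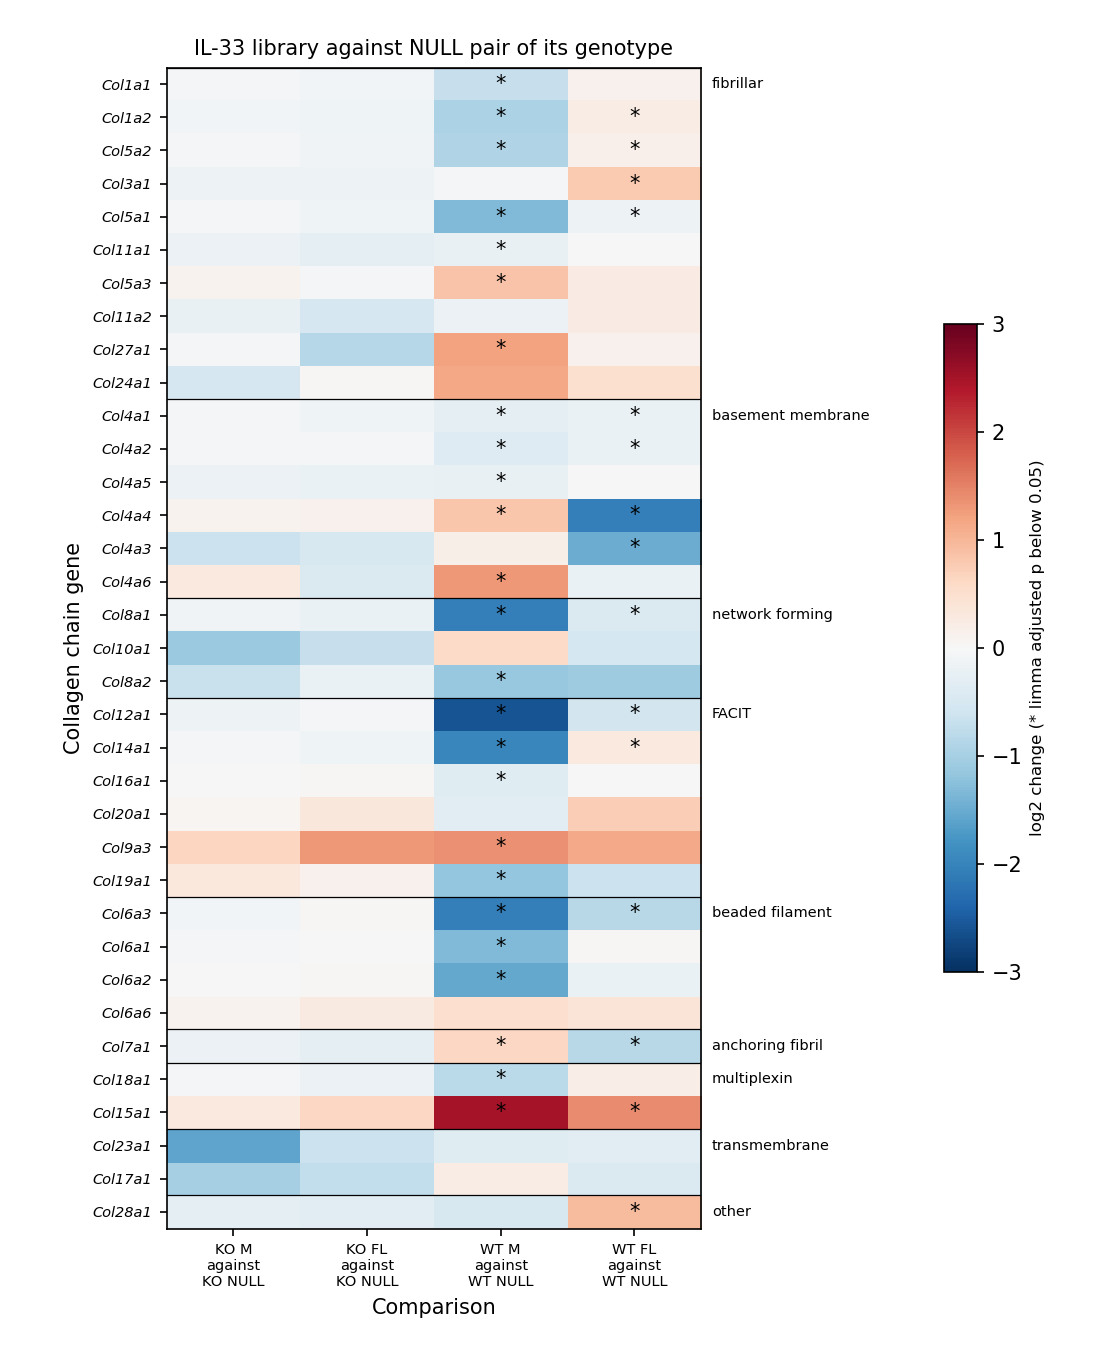
Log2 change of each of 35 collagen chains in an IL-33 library against the NULL pair of its genotype, grouped by class; red is higher and blue lower than NULL, and stars mark a limma adjusted p below 0.05. The KO columns are pale with 0 stars, while the WT M column has 25 and the WT FL column 15.

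The difference of the M effect between the genotypes was tested directly, as the M effect in KO minus that in WT. It was called for 18 of 35 chains (51.4%, beside 33.4% of all genes tested, 18.8% positive and 14.6% negative), 14 with a positive and 4 with a negative value; with quantile normalization the split was 10 and 7. The positive ones were led by Col12a1 (28722 in KO M and 32540 and 30926 in KO NULL; 12446 in WT M and 74598 and 76274 in WT NULL), with a difference of 2.46 log2 units (SE 0.06, adjusted p = 2.31e-06). Col6a3, Col8a1, Col14a1 and Col6a2 followed at 1.98, 1.95, 1.92 and 1.56. Col15a1 led the negative ones at -2.22 (SE 0.14, adjusted p = 6.98e-05), with Col10a1 at -1.68, Col7a1 at -0.79 (not called without the first KO NULL library or with no filter) and Col5a3 at -0.77.

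Treating FL and M as the samples of one IL-33 group gave no called chain: 0 of 35 in WT, 0 in KO and 0 for the difference between genotypes, by limma, beside 0.264%, 0.0193% and 0.129% of all genes called. At an unadjusted p below 0.05 there were 9 chains in WT, 1 in KO and 3 for the difference, beside 22.1%, 2.14% and 9% of all genes. Without WT FL, 26 chains were called for IL-33 in WT and 19 for the difference; without WT M, 13 and 10. The smallest p among the chains was that of Col15a1 in WT, where limma gave a log2 change of 1.96 with an adjusted p = 0.0880.

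Ratios of chains within a library, per kb, describe the balance of chain RNAs and were picked with the values known, so they carry no test. Collagen protein and the make-up of the matrix were not measured. The ratio of Col1a1 to Col1a2 was 1.11 to 1.16 in KO and 1.09 to 1.40 in WT, highest in WT M. That of Col4a1 to Col4a2 was 1.36 to 1.44 in KO and 1.37 to 1.505 in WT, the most even of those shown. Col3a1 over Col1a1 was 0.502, 0.497, 0.530 and 0.530 in KO FL, KO M and the KO NULL pair, against 0.457, 0.456, 0.275 and 0.306 in WT FL, WT M and the WT NULL pair. Both WT IL-33 libraries thus had a Col3a1 to Col1a1 RNA ratio nearer to KO than to WT NULL. WT M had less Col1a1 than WT NULL, and WT FL had more Col3a1. Col11a1 over Col5a1, chains that co-assemble in fibrils, was 0.0855 to 0.0975 in KO, against 0.248, 0.466, 0.210 and 0.229 in the WT libraries in that order. Col6a3 over Col6a1 was 1.48 to 1.57 in KO, against 1.15 in WT FL, 1.28 in WT M and 2.13 in both WT NULL libraries. Col15a1 over Col18a1 was 0.824, 0.601, 0.448 and 0.496 in KO, against 0.295, 1.26, 0.121 and 0.133 in WT.

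**Figure D4:**
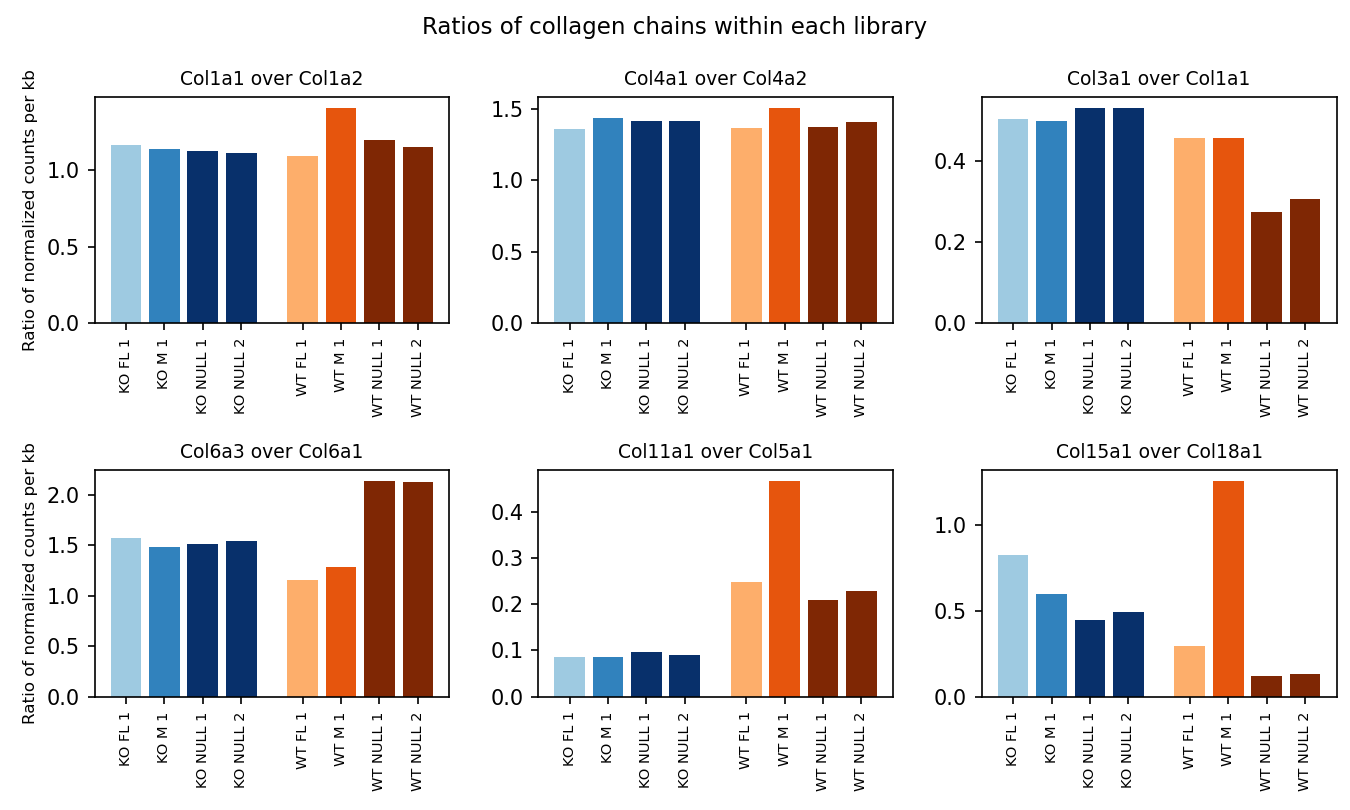
Ratios of normalized counts per kb between pairs of collagen chains in each of the 8 libraries, KO on the left and WT on the right of each panel, all axes from 0. The Col4a1 over Col4a2 bars are nearly level, from 1.36 to 1.505, while Col3a1 over Col1a1 is lowest in the WT NULL pair and Col11a1 over Col5a1 and Col15a1 over Col18a1 are highest in WT M.

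Genes that build and handle collagen were read from lists of partners. Of 23 synthesis and folding genes tested, 1 was higher and 1 lower in KO averaged over inserts. Tmem38b, an endoplasmic reticulum ion channel gene mutated in brittle bone disease, had 978, 825, 1045 and 1038 in KO FL, KO M and the KO NULL pair, against 601, 517, 841 and 954 in WT FL, WT M and the WT NULL pair (log2 change 0.45, adjusted p = 0.0237). The prolyl hydroxylase gene P3h2 had 79.1 to 100.4 in KO, against 106 to 161 in WT (log2 change -0.56, adjusted p = 0.0454). In WT M, 18 of the 23 were lower and 2 higher against WT NULL, beside 26.8% and 22.5% of all genes tested. These included Plod2, which hydroxylates the lysines used for cross-links, at 13551, against 30392 and 32293 (log2 change -1.21), the prolyl hydroxylase subunit P4ha3 (-1.49), P3h3 (-0.96) and the chaperone Fkbp14 (-1.21).

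Of 19 cross-linking and propeptide processing genes tested, 1 was higher and 2 lower in KO averaged over inserts. The transglutaminase gene Tgm2 had 42850 to 44809 in KO, against 21891 to 22554 in WT (log2 change 0.98, adjusted p = 3.57e-04). Bmp1, which removes the C-propeptide, had 8721 to 8972 in KO, against 10949 to 13265 in WT (log2 change -0.44, adjusted p = 0.0047). The N-proteinase gene Adamts3 had 4.14 to 15.3 in KO and up to 40.4 in WT, without overlap (log2 change -1.82, adjusted p = 0.0354). For Adamts3, KO FL, KO M and the first KO NULL library lay below the mean required for testing. It passed that filter mainly through its WT libraries. In WT M, 13 of 19 were lower and 4 higher against WT NULL, beside the same 26.8% and 22.5% of all genes. Lox, a lysyl oxidase, had 50274, against 184304 and 195127 (log2 change -1.92), and the fibril-binding proteoglycan Fmod had 37.3, against 699 and 744 (log2 change -4.24). Loxl1 (-1.62) and Pcolce, which enhances C-propeptide removal (-1.58), were lower too.

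Of 11 collagen receptor and uptake genes tested, 0 were called between KO and WT averaged over inserts. In WT M, 8 were lower and 1 higher, beside 26.8% and 22.5% of all genes. The integrin gene Itga11 had 888, against 17464 and 16912 in WT NULL (log2 change -4.27), with Itga1 (-1.64), the endocytic receptor Mrc2 (-1.41) and the kinase receptor Ddr1 (-0.92) also lower. In WT FL 1 was higher and 4 lower, beside 2 higher and 1 lower of the synthesis genes and 2 higher and 3 lower of the cross-linking genes; 3.5% of all genes tested were called higher and 3.9% lower. In KO M and KO FL 0 genes of these lists were called.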

How the data were processed

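RNA from primary lung fibroblasts was sequenced, and the authors deposited 1 table of normalized counts per gene (signal) for 8 libraries; the tools named are Salmon, DESeq2 and GRCm38.p6, per the submitters' processing notes, with no versions or roles. A second deposited table, labelled for unseparated cells, is the same to within rounding (434648 cells compared, 2 not identical). Of 54331 identifiers, 54097 matched a mouse symbol. Levels per kb used the GENCODE transcript with the longest coding sequence.

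Values were analysed as log2(normalized counts + 1) for 15527 genes with a mean of at least 10, with limma 3.58.1 in R 4.3.3 (trended prior, two-sided, Benjamini-Hochberg adjustment over all genes tested). Genotype and pooled IL-33 comparisons came from 4 groups (4 residual degrees of freedom), and single inserts from 6 groups (2 residual degrees of freedom, from the NULL pairs only). The spread in 4 groups includes the difference between FL and M. Read depth was not recovered here, since the deposited counts were already normalized. The script was tested on simulated data. The 2 NULL libraries of a genotype bear numbers that do not pair the samples (correlation of their differences 0.02 over 15527 genes).

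Named in each comparison were up to 5 called chains with the largest rises and 5 with the largest falls, and up to 4 called genes with the smallest p of each partner list; other chains were counted. The chains, lists and tests were chosen with earlier results of these data known. Alternatives tried were 0.5 or 8 added before the logarithm, a minimum mean of 50 or none, trimmed-mean (TMM) and quantile scaling, a fit of 6 groups throughout, a block for the NULL number, and dropping each library.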

Additional observations from a re-analysis of the deposited data

Results flagged for a closer look

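For 9 named chains the effect of mature IL-33 differed between KO and WT by a direct test (limma adjusted p; M effect in KO minus M effect in WT, in log2 units). Positive differences were 2.46 for Col12a1 (adjusted p = 2.31e-06), 1.98 for Col6a3 (adjusted p = 5.36e-06), 1.95 for Col8a1 (adjusted p = 3.79e-06), 1.92 for Col14a1 (adjusted p = 7.44e-06) and 1.56 for Col6a2 (adjusted p = 5.68e-05). Negative differences were -2.22 for Col15a1 (adjusted p = 6.98e-05), -1.68 for Col10a1 (adjusted p = 0.0116), -0.79 for Col7a1 (adjusted p = 0.0160) and -0.77 for Col5a3 (adjusted p = 0.0064). Each rests on 1 M library per genotype, with 81110 Il33 counts in KO M and 248956 in WT M, so genotype and dose of IL-33 cannot be told apart here. The macrophage and mesothelial markers given for WT M move with it, and their part was not tested.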

How the results depend on the processing

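No named result changed sign under any alternative run; of 52 named results 33 stayed called under every alternative that gave a value, and 19 lost the call under at least 1. Among the counts of called chains, no filter gave 15 for WT M and 7 for WT FL against WT NULL, and quantile normalization gave 1 for KO FL. The NULL number as replicate block gave 5 for KO against WT averaged, 3 for KO NULL against WT NULL and 8 for WT FL against WT NULL, with the numbers not pairing the samples. A fit of 6 groups gave 23 for KO against WT averaged, 23 in NULL, 21 for IL-33 in WT and 15 for the difference of IL-33 effects, the construction being that the spread then leaves out the difference between FL and M. The 6-group fit without the WT M library, chosen after seeing the data, gave 24 for KO against WT. Leaving out 1 library at a time gave 5 to 26 for KO against WT averaged, 1 to 23 in NULL, 0 to 26 for IL-33 in WT, 0 to 19 for the difference of IL-33 effects and 8 to 15 for WT FL. A lone FL or M library left out gives no value for its own comparison. An added 0.5 or 8, a mean of at least 50 and TMM factors kept every count within 1.5 times. Causes were not tested otherwise. Single FL and M libraries limit what the insert comparisons can show.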
